A study of Mus musculus with 24 samples.

Results

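The replicative polymerases and fork factors described here are 10 genes: Pola1, Pola2, Prim1, Prim2, Pold1, Pole, Pole2, Pcna, Lig1 and Fen1. They were chosen by name, with earlier results of these data known. All their probe sets annotated to a single gene were taken, 19 probe sets in all. The arrays measured 18193 genes through 34945 such probe sets. Of 24 arrays, 12 came from primary B-cell lymphomas exposed for 5 days to the DNA-damaging drug doxorubicin (Adriamycin, ADR) at 0.05 µg/ml, and 12 from the same lymphomas left untreated. All 24 came from lymph node lymphomas of Emu-Myc mice, in which the Myc transgene is driven in the B-cell lineage, and all carried retroviral Bcl2 (MSCVpuro, selected with Puromycin), which protects from apoptosis, and were grown on gamma-irradiated NIH 3T3 mouse fibroblasts as feeder. Mouse age and strain are not given in the labels, which mark the ADR arrays as induced to senescence, a stable exit from the cell cycle. Each gene was read through its probe set with the highest mean unless another is named. Values are log2 expression, changes are ADR minus untreated within a lymphoma, and a gene is called at an adjusted p under 0.05 in limma's paired test over all genes.

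DNA synthesis at a replication fork starts with the polymerase alpha-primase complex, in which primase (Prim1, catalytic, and Prim2, large subunit) makes a short RNA primer and polymerase alpha (Pola1, catalytic, and Pola2, regulatory) extends it with DNA. Polymerase epsilon (Pole, with its subunit Pole2) and polymerase delta (Pold1, catalytic) then copy the bulk of the leading and the lagging strand. Pcna is the ring-shaped clamp that holds them on DNA, Fen1 is the nuclease that removes the displaced primer flap, and Lig1 is the ligase that joins the Okazaki fragments. Cycling lymphoma cells need these proteins in S phase, and many of their genes are targets of the E2F transcription factors.

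RefSeq (GRCm38.p6) promoter windows, from 250 bases before to 50 after the transcript start, were found for 8 of the 10 genes, with 11 windows in all. The letters TTTCCCGC, TTTCGCGC, TTTGCCGC and TTTGGCGC, forms of the E2F motif, were searched on both strands. They occurred in windows of 4 of the 8 genes, against 2.6% of 27025 genes with such windows. For this and the motifs below, the 27025 genes were not matched to the 8 in G and C content or number of windows. The match is a description of letters and not of binding. Genes without a match, such as Prim1 (change -1.69), also fell with ADR, and a relation of the letters to the falls was not tested. The 4 windows with a match are shown in the 5′ to 3′ direction of the gene, with the E2F letters in capitals. They are Pola1 at chrX:93632106-93632405 (minus strand), Pold1 at chr7:44548766-44549065 (minus strand), Pole2 at chr12:69228141-69228440 (minus strand) and 1 of 3 Lig1 windows at chr7:13278576-13278875 (plus strand). The Pcna window at chr2:132253131-132253430 (minus strand), which holds none of the 4 forms, is printed after them for comparison.
Pola1: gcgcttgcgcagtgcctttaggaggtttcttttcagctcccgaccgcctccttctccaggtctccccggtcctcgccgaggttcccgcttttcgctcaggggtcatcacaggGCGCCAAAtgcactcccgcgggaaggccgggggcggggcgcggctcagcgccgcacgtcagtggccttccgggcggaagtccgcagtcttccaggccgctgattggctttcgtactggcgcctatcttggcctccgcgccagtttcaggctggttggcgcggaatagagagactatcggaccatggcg
Pold1: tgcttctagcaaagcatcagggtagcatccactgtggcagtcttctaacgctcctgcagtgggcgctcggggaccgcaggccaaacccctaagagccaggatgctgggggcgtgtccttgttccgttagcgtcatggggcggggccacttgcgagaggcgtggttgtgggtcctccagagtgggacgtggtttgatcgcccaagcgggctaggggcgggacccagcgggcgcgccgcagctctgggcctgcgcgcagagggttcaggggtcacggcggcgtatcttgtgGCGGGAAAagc
Pole2: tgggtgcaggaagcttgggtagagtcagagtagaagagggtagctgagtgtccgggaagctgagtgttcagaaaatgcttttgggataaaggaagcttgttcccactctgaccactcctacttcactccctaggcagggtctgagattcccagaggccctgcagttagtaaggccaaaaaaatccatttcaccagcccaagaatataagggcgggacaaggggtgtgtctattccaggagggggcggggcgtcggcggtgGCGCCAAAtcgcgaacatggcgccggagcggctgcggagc
Lig1: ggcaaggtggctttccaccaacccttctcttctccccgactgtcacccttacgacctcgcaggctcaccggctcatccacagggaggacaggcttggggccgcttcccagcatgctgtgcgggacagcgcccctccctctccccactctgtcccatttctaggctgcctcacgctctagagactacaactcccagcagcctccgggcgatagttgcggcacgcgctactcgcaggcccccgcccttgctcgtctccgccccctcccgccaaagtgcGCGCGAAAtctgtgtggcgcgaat
Pcna: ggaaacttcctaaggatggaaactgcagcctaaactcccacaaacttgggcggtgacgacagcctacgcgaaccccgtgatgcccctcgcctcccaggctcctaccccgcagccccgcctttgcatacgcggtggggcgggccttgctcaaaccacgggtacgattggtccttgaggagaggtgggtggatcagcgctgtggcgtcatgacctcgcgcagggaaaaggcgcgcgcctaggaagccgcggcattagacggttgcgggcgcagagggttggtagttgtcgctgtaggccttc
Each E2F match reads on the strand opposite to the gene. Counting the transcript start as 0, the first base of the match lies at -138 in Pola1, 39 in Pold1, 10 in Pole2 and 26 in Lig1. CCAAT, the core of the CCAAT box, was found on either strand in windows of Pola1, Prim1 and Pcna, 3 of the 8 genes, against 41.1% of all genes. GGGCGG, the GC box, was found in 6 of the 8, against 38.2%. TTTGAA, a form of the cell cycle homology region (CHR) of genes of later cell cycle phases, was found in 1 of the 8 (Fen1), against 20.2%.

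All 10 genes fell with ADR: 10 of 10 were called lower, against 12.8% of all genes called lower. The fall was at least 2-fold in 7 of them, against 1.96% of all genes. Each of the 10 was lower in all 12 lymphomas, against 4.17% of all genes. The median change of the 10 was -1.34, against -0.01 over all genes. By the brightest probe set of each gene, the largest change was that of Pola1 (-2.0) and the smallest were those of Pcna (-0.745) and Fen1 (-0.744). With the mean of all probe sets of a gene, dim ones included, Prim1 had the largest change (-1.68), Pola1 had -1.01, and the smallest were those of Pola2 (-0.47) and Pole2 (-0.66), with 10 of 10 called.

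**Figure D1:**
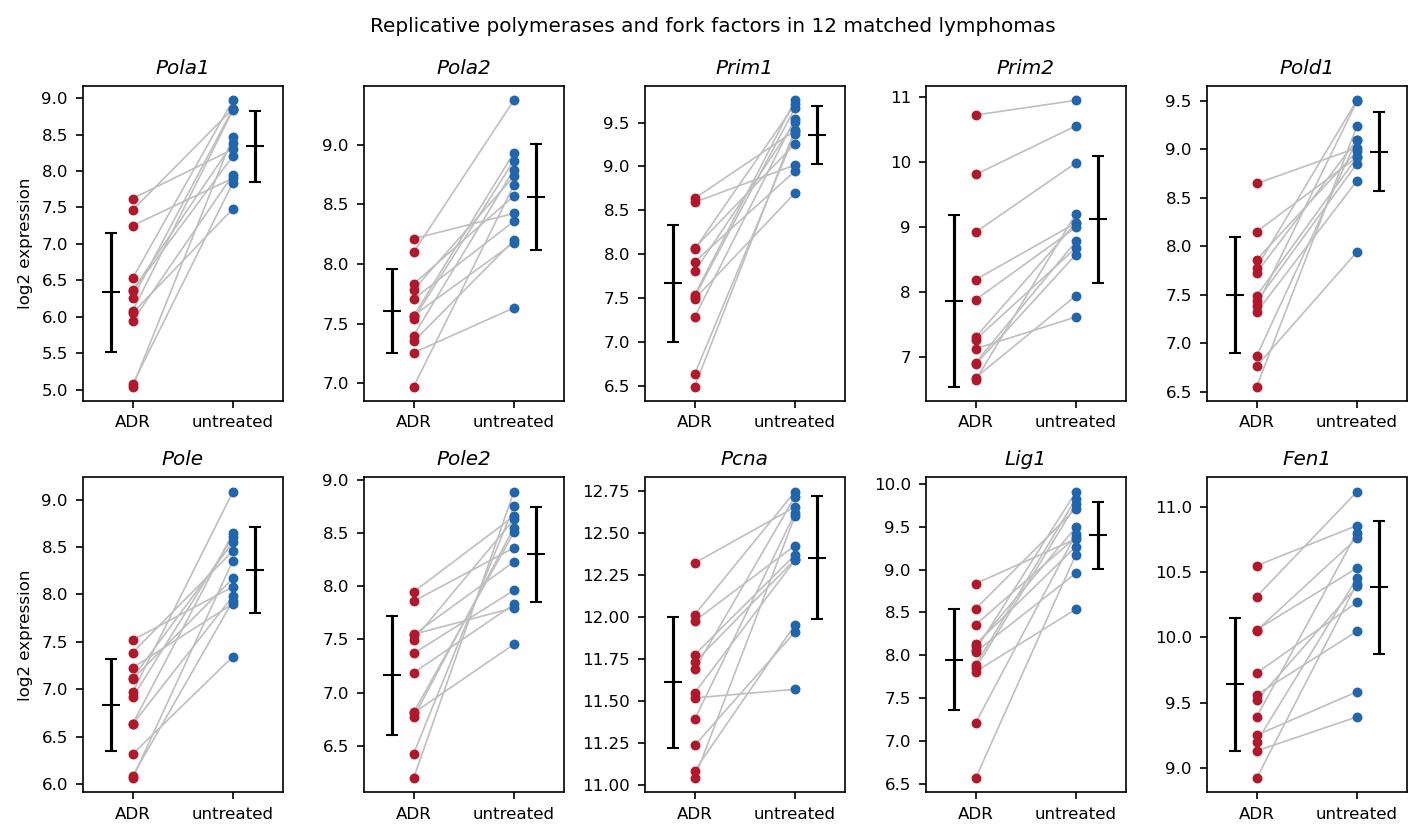
Log2 expression of the 10 genes (vertical axis, 1 panel per gene with its own scale) in 12 ADR arrays (left, red) and 12 untreated arrays (right, blue), with lines joining the arrays of a lymphoma and black bars for the mean and SD. Every line is lower on the ADR side, and only Prim1 has no overlap between the groups, with 8.64 as its highest ADR value and 8.70 as its lowest untreated value.

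The bulk RNA of a culture was measured, so fewer cycling lymphoma cells and less RNA of a gene per cell cannot be told apart. Array medians lay between 4.38 and 4.47, and that highest median is taken as the level near which signal is weak. The mean of the B lineage markers lay well above it: over 11 measured genes it was 7.03 to 9.95 in ADR arrays and 8.35 to 9.45 in untreated arrays. Cd79b, a subunit of the B-cell receptor, was at 10.78 and 11.05 on average, while Pax5 lay nearer the weak-signal level, at 4.835 and 5.045. The B lineage marker mean was lower with ADR in 10 of 12 lymphomas, with a median change of -0.78, and 5 of the 11 were called lower, led by Vpreb3 (-2.17) and Fcrla (-1.47). Fibroblast markers (23 measured) had a mean of 4.71 to 9.04 in ADR arrays and 4.34 to 5.18 in untreated arrays, and 19 were called higher, where 13.7% of all genes were called higher. Among them were Fn1 (3.47) and Cald1, whose untreated mean of 4.28 lay below 4.47, against 8.36 with ADR. Macrophage markers (19 measured) had a mean of 5.90 to 9.18 in ADR arrays and 4.81 to 8.14 in untreated arrays, and 14 were called higher, led by Clec4d (2.99) and Ms4a7 (2.89). Neutrophil markers (11 measured) had a mean of 4.37 to 6.34 in ADR arrays and 4.01 to 5.46 in untreated arrays, and 4 were called higher, led by Lcn2 (2.77) and Mmp8 (2.46). The other 7 were not called, among them S100a9, Mpo, Elane and Ltf, whose means lay below 4.47 in both groups. The part of these shifts in the falls of the 10 genes was not tested beyond the fits given below. T and NK markers had medians of 4.65 and 4.64. Of the arrays, the ADR array of lymphoma 1570 stood apart in RNA quality: its Gapdh 3′ control probe set exceeded the 5′ one by 0.94 on the log2 scale, against -0.14 to 0.40 in the other 11 ADR arrays and -0.05 to 0.05 in untreated arrays. Without lymphoma 1570, as without any other single lymphoma, 10 of 10 genes were called lower.

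Within polymerase alpha-primase, the catalytic polymerase gene Pola1 and the primase gene Prim1 changed most. Pola1 had a lowest, median and highest value of 5.04, 6.30 and 7.62 in ADR arrays, against 7.48, 8.34 and 8.97 in untreated arrays. All but 1 of the ADR values (lymphoma 3802, at 7.62) lay below the lowest untreated value. The mean was 6.33 ± 0.82 with ADR and 8.34 ± 0.48 untreated (SD, n = 12 each), 4.0-fold lower by the paired fit, with a log2 change of -2.0 (SE 0.23, limma adjusted p = 4.06e-05). Prim1, which makes the RNA primer, had 6.49, 7.67 and 8.64 in ADR arrays, against 8.70, 9.41 and 9.75 in untreated arrays. By the brightest probe set of Prim1 the groups did not overlap, a pattern that 0.264% of all genes showed. By its other probe set they did overlap, with 8.21 as the highest ADR value and 8.16 as the lowest untreated value. The mean of Prim1 was 7.67 ± 0.67 with ADR and 9.36 ± 0.33 untreated, 3.22-fold lower with a log2 change of -1.69 (SE 0.21, adjusted p = 7.2e-05), and its other probe set changed by -1.66.

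The regulatory subunit gene Pola2 fell less. Its values were 6.97, 7.57 and 8.21 in ADR arrays, against 7.63, 8.62 and 9.37 in untreated arrays, with 5 ADR arrays at or above the lowest untreated one. The log2 change was -0.95 (SE 0.12, adjusted p = 0.000107), or 1.94-fold lower. Per lymphoma the Pola1 change was lower than the Pola2 change in 11 of 12 (mean difference -1.05 ± 0.61, SD, exact sign-flip permutation p = 0.000977, adjusted p = 0.00549 over 45 pairs of members). The same comparison of Prim1 with Pola2 gave -0.74 ± 0.55 (exact permutation, adjusted p = 0.00549). Prim1 did not differ detectably from Prim2: -0.435 ± 0.986, lower in 8 of 12 (exact permutation, adjusted p = 0.204). Pola1 against Prim2 gave -0.748 ± 0.778, lower in 11 of 12 (exact permutation, adjusted p = 0.00961). Each gene has its own probe set, so sizes of change are only roughly comparable between genes.

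Prim2, the large primase subunit, varied between lymphomas more than the other 9 genes. It had 6.65, 7.29 and 10.73 in ADR arrays, against 7.62, 9.04 and 10.96 in untreated arrays. The SD was 1.32 with ADR and 0.97 untreated, while those of the other 9 genes lay between 0.35 and 0.82 with ADR and between 0.33 and 0.51 untreated. The untreated SD of Prim2 was at the 96.6th percentile of all genes, and those of the other 9 between the 65.3rd and the 84.8th. All genes include many dim ones. Among genes with an untreated mean above the array medians, Prim2 was at percentile 95.1 and the other 9 lay between 45.1 and 77.1. Despite this spread the paired change was called (-1.25, SE 0.17, limma adjusted p = 0.000159, 2.39-fold lower), and it was below 0 in each lymphoma. Without the lymphoma block, the SE was 0.45 and Prim2 lost its call (limma adjusted p = 0.0566).

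Lymphomas 2949, 5766 and 6054 held the 3 highest Prim2 values, in both conditions. In 2949 Prim2 was 10.73 with ADR and 10.96 untreated, a change of -0.23, the smallest of the 12. Prim1, its partner in primase, had in the same lymphoma its deepest fall, -2.93, with 6.49 with ADR and 9.42 untreated. In 5766 Prim2 was 9.81 with ADR and 10.56 untreated, and in 6054 8.93 and 9.99. The second bright Prim2 probe set gave 10.53 and 10.64 in lymphoma 2949, a change of -0.11. At the other end, lymphoma 1467 had an untreated Prim2 value of 7.62 and lymphoma 3769 had the deepest fall, -2.56 (6.65 with ADR and 9.21 untreated). These were single lymphomas picked out after their values were seen. All 3 with high Prim2 belong to the 7 lymphomas whose treated arrays carry DOX rather than sen in their array names, and the labels do not say what the names stand for.

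**Figure D2:**
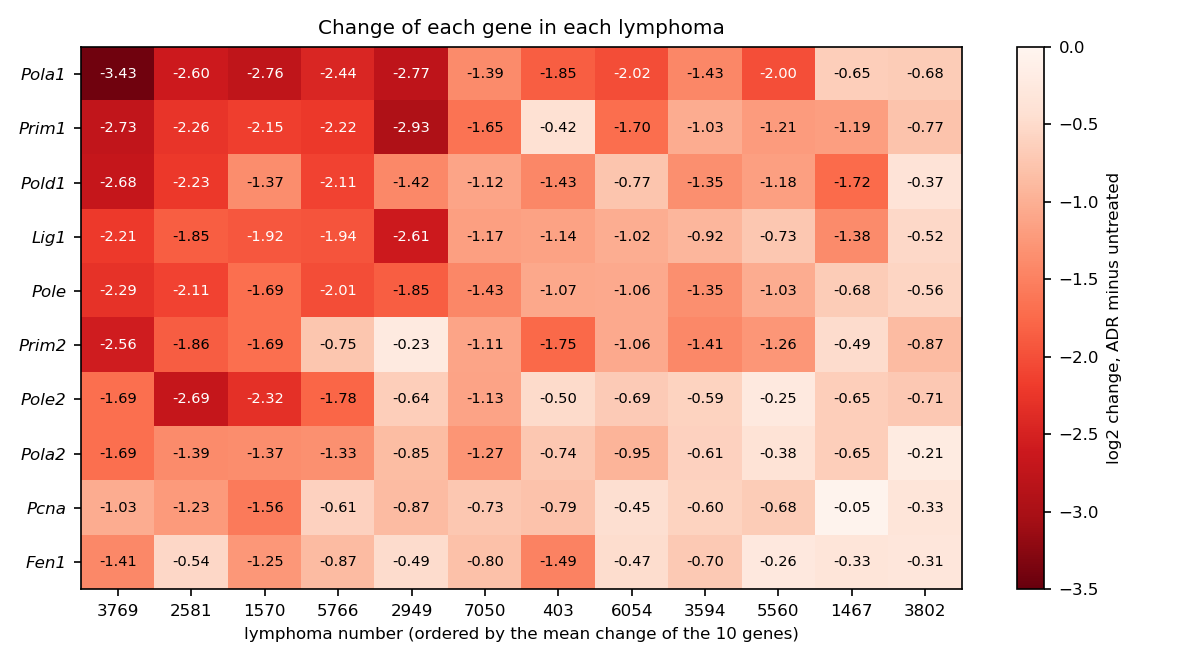
Log2 change, ADR minus untreated, of each gene (rows, ordered by mean change) in each of the 12 lymphomas (columns, ordered by the mean change of the 10 genes), with paler red for smaller falls. Every value is below 0. Lymphoma 3769 has the deepest fall for 5 genes and 3802 the smallest for 4, and Prim2 and Prim1 part in lymphoma 2949 (-0.23 and -2.93).

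The catalytic genes of the main replicative polymerases fell by similar amounts. Pold1 had 6.55, 7.46 and 8.65 in ADR arrays, against 7.94, 8.99 and 9.5 in untreated arrays, with 2 ADR arrays inside the untreated range. Its log2 change was -1.48 (SE 0.17, adjusted p = 4.72e-05), or 2.78-fold lower, and its second probe set changed by -1.26. Pole had 6.06, 6.94 and 7.52 in ADR arrays, against 7.34, 8.26 and 9.08 in untreated arrays, also with 2 inside the untreated range. Its log2 change was -1.43 (SE 0.15, adjusted p = 3.11e-05), or 2.69-fold lower. The difference between the changes of Pold1 and Pole was -0.05 ± 0.42 (SD over 12 lymphomas, exact sign-flip permutation p = 0.726), with Pold1 lower in 7 of 12.

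Pole2, a subunit of polymerase epsilon, changed unevenly between lymphomas, as Pola1 and Prim1 did (SE of the change 0.21, against 0.23 and 0.21). It had 6.20, 7.28 and 7.95 in ADR arrays, against 7.45, 8.43 and 8.89 in untreated arrays, and 5 ADR arrays reached the untreated range. The change was -2.69 in lymphoma 2581, -2.323 in 1570, -1.78 in 5766 and -1.69 in 3769, while in the other 8 lymphomas the change lay between -1.13 and -0.25. The median change was -0.70 and the fitted change -1.14 (SE 0.21, adjusted p = 0.00125).

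Other subunits of the same polymerases, taken from a list that holds Pold2, Pold3, Pold4, Pole3 and Pole4, were mixed: 2 of 5 were called lower and 0 higher, where 12.8% of all genes were called lower. Pold2, the second subunit of polymerase delta, had 7.86 with ADR and 9.17 untreated on average (log2 change -1.31, adjusted p = 3.7e-05), and Pold3, an accessory subunit, -0.52 (adjusted p = 0.00111). Pold4, the smallest subunit of polymerase delta, had 9.63 with ADR and 9.49 untreated (0.14, adjusted p = 0.618). Pole3 and Pole4, histone-fold subunits of polymerase epsilon, had changes of -0.28 (adjusted p = 0.0532) and -0.05 (adjusted p = 0.719). Compared within lymphomas, the Pole change was lower than the Pole3 change in 12 of 12 (difference -1.15 ± 0.47) and lower than the Pole4 change in 12 of 12 (-1.38 ± 0.66), with an exact sign-flip permutation adjusted p of 0.000814 for each. Pold1 was lower than Pold4 in 11 of 12 (-1.61 ± 1.03, exact permutation, adjusted p = 0.00122) and lower than Pold3 in 12 of 12 (-0.95 ± 0.56, adjusted p = 0.000814). Against Pold2 the difference was -0.17 ± 0.39 (adjusted p = 0.148). These 5 comparisons were chosen after the values were seen. Among the 45 pairs of members, Pole against Pole2 gave -0.292 ± 0.551, lower in 9 of 12 (exact permutation, adjusted p = 0.138).

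Among the fork factors, the fall of Lig1 lay near those of Pold1 and Pole, and Pcna and Fen1 had smaller changes than Lig1 (exact sign-flip permutation, adjusted p = 0.00439 and 0.00628). Lig1, the ligase, had 6.57, 8.05 and 8.84 in ADR arrays, against 8.54, 9.40 and 9.91 in untreated arrays, with 2 ADR arrays inside the untreated range. It was 2.74-fold lower (log2 change -1.45, SE 0.17, adjusted p = 5.44e-05). Pcna, the clamp, had 11.04, 11.62 and 12.32 in ADR arrays, against 11.57, 12.40 and 12.75 in untreated arrays. The groups overlapped in 6 ADR arrays, and the change was -0.05 in lymphoma 1467 and -1.56 in lymphoma 1570. It was 1.68-fold lower (log2 change -0.745, SE 0.11, adjusted p = 0.000274). Fen1, the flap nuclease, had 8.92, 9.54 and 10.55 in ADR arrays, against 9.39, 10.43 and 11.11 in untreated arrays, with 8 ADR arrays inside the untreated range. Its change was -0.74 (SE 0.12, adjusted p = 0.000431, 1.68-fold lower), and -1.07 by its other probe set.

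By the brightest probe set, the genes ordered by change ran Pola1, Prim1, Pold1, Lig1, Pole, Prim2, Pole2, Pola2, Pcna and Fen1. With the mean of all probe sets the order was Prim1, Lig1, Pole, Pold1, Pola1, Fen1, Prim2, Pcna, Pole2 and Pola2, so it depends on the probe sets used. The tests that follow are for the brightest ones. None of the 9 neighbouring pairs in the first order differed beyond the spread between lymphomas (exact sign-flip permutation, adjusted p from 0.108 to 0.992). Over all 45 pairs, 23 differed at an adjusted p under 0.05. Pola1 differed from each gene but Prim1, in 8 of 9 pairs. Pcna and Fen1 each differed from 6 others: Pola1, Prim1, Pold1, Lig1, Pole and Prim2. The change of Pola1 was lower than that of Pcna in 12 of 12 lymphomas (difference -1.26 ± 0.60, exact permutation p = 0.000488, the smallest this test can give, adjusted p = 0.00439).

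Several probe sets of 1 gene allowed a check of the values. Of the 19 probe sets, 15 were called lower, against 12.5% of all 34945 probe sets. The other 4 (1 of Pola1, 2 of Pola2 and 1 of Pole2) had means between 2.81 and 3.86 in both groups, below the array medians. Their changes were -0.02 for Pola1 (adjusted p = 0.866), -0.34 and -0.13 for Pola2 (0.0868 and 0.24) and -0.17 for Pole2 (0.0699). The dimmest of the 3 Prim2 probe sets, at 4.34 with ADR (below 4.47) and 4.73 untreated, was called lower by -0.39 (adjusted p = 0.00308).

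**Figure D3:**
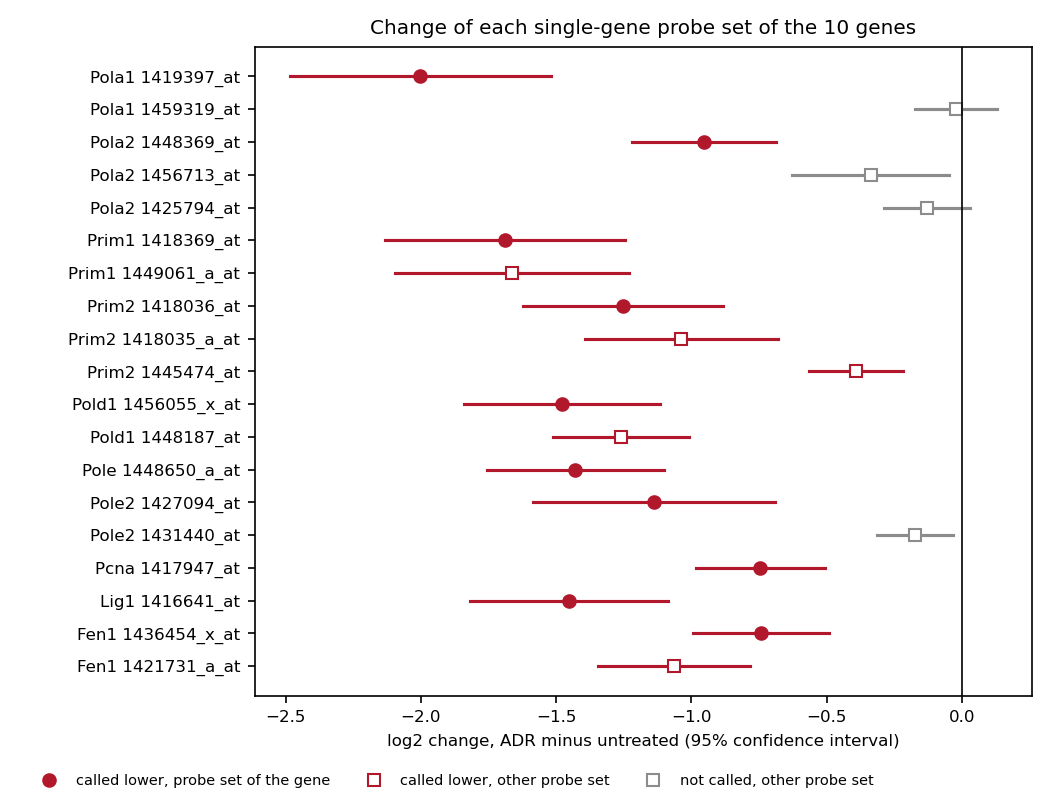
Log2 change, ADR minus untreated, with its 95% confidence interval (horizontal axis), for the 19 probe sets (rows). Filled circles mark the probe set that stands for the gene, open squares the others, red those called lower and grey those not called. The 15 called probe sets lie between -2.0 and -0.39, and the 4 grey ones between -0.34 and -0.02.

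Lymphomas differed in how far the genes fell. The mean change of the 10 genes was -2.17 in lymphoma 3769, -1.88 in 2581 and -1.81 in 1570, and it was -0.53 in 3802, -0.78 in 1467 and -0.90 in 5560. Lymphoma 3802 had the highest ADR values of Pola1, Pola2, Prim1, Pold1, Pole, Pole2, Pcna, Lig1 and Fen1, 9 of the 10. The proliferation marker gene Mki67 changed by -0.98 in 3802, its smallest fall, and by -4.28 in 2949, its largest. In lymphoma 2949 the mean change of the 10 genes was -1.47. On average Mki67 changed by -2.35 (limma adjusted p = 2.22e-05), Myc by -0.75 (adjusted p = 0.0231) and Cdkn1a, the gene of the cell cycle inhibitor p21, by 1.14 (adjusted p = 0.00192).

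The changes of 4 genes followed that of Mki67 across the 12 lymphomas. For Lig1 Pearson r was 0.888 and Spearman rho 0.846 (permutation p = 0.0001 and 0.00096, adjusted p = 0.003 and 0.0096). For Prim1 r was 0.835 and rho 0.881 (permutation p = 0.00055 and 0.00037, adjusted p = 0.00825 and 0.00555), and for Pola1 0.796 and 0.881 (permutation p = 0.00167 and 0.00037, adjusted p = 0.0167 and 0.00555). For Pole they were 0.753 and 0.811 (permutation p = 0.00387 and 0.0022, adjusted p = 0.029 and 0.0165). Leaving out 2949 and 3802, whose Mki67 changes lay farthest from the median, gave an r of 0.771 for Lig1, 0.754 for Prim1, 0.820 for Pola1 and 0.789 for Pole. Within the 7 DOX lymphomas r was 0.959, 0.967, 0.876 and 0.775 (exact permutation p = 0.00139, 0.000397, 0.0115 and 0.0395). No value was computed for the 5 sen lymphomas alone, fewer than 6.

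The other 6 genes had no adjusted p under 0.05 for r. Pola2 had r = 0.563 (rho 0.762, permutation p = 0.0552 and 0.00551, adjusted p = 0.243 and 0.0331), so it passed by rank only, and without 2949 and 3802 its r was 0.783 (permutation p = 0.00944). Without those lymphomas r was 0.66 for Pold1 and 0.619 for Pole2 (permutation p = 0.0394 and 0.0584), against 0.538 and 0.294 with all 12 (permutation p = 0.0705 and 0.355, adjusted p = 0.264 and 0.791). Prim2 had r = -0.03 (rho 0.091, permutation p = 0.927 and 0.782, adjusted p = 0.927 and 0.903), and 0.438 without 2949 and 3802 (permutation p = 0.204). Fen1 had r = 0.245 and Pcna 0.415 (permutation p = 0.448 and 0.178, adjusted p = 0.791 and 0.487). Whether these relations differ between genes was not tested. None of 10 relations with the change of Cdkn1a passed (r from -0.63 to 0.05, adjusted p from 0.167 to 0.927). The lowest, r = -0.631 for Pole2 (permutation p = 0.0279, adjusted p = 0.167), rested on lymphomas 1570 and 2581, since without them r was 0.094. None of 10 relations with the change in the fibroblast marker mean passed either (r from -0.56 to 0.28, adjusted p from 0.243 to 0.927). By rank Prim2 came nearest, with rho = -0.699 (permutation p = 0.014, adjusted p = 0.0702). Within the 7 DOX lymphomas these r ran from -0.773 for Fen1 (exact permutation p = 0.0331, unadjusted) to 0.007 for Prim1. The 30 relations were adjusted together.

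**Figure D4:**
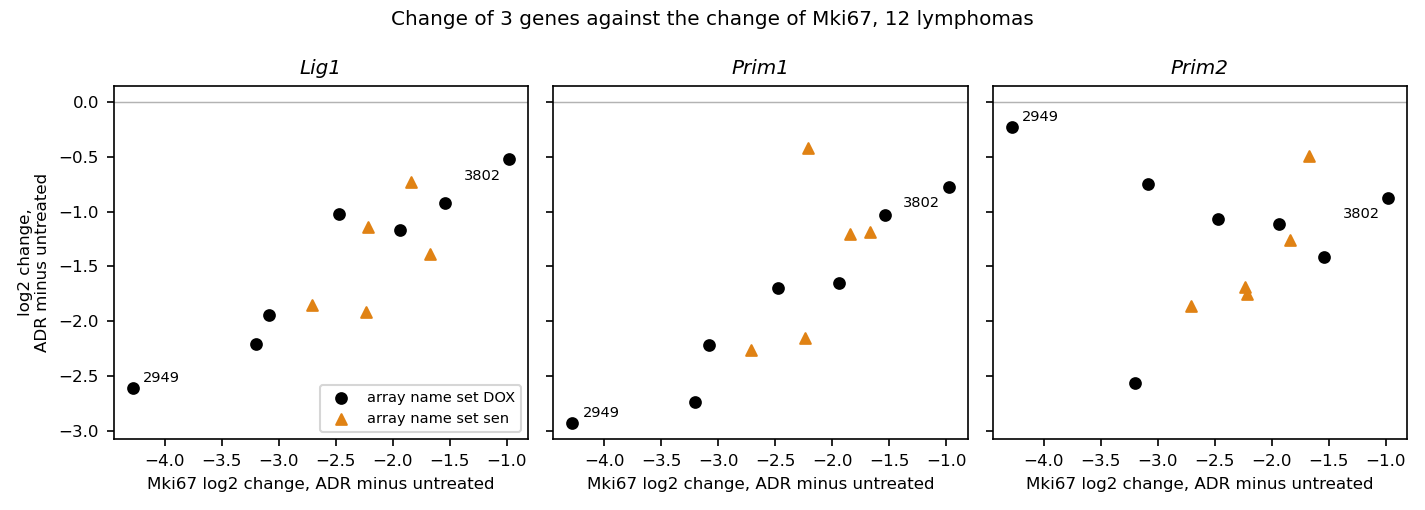
Log2 change, ADR minus untreated, of Lig1, Prim1 and Prim2 (vertical axis) against that of Mki67 (horizontal axis) in 12 lymphomas, with circles for the DOX and triangles for the sen array names. Lig1 (r = 0.888) and Prim1 (r = 0.835) fall with Mki67, while in the Prim2 panel (r = -0.03) lymphoma 2949 lies near 0 at the far left.

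The falls did not differ detectably between the array name sets. Over the 7 DOX lymphomas the changes ran from -2.02 for Pola1 to -0.66 for Pcna, and all 10 genes were called lower in them alone, against 8.8% of all genes. Over the 5 sen lymphomas they ran from -1.97 for Pola1 to -0.77 for Fen1, and 7 were called lower, against 2.6% of all genes. Pole2 (-1.28, adjusted p = 0.14), Pcna (-0.86, 0.0876) and Fen1 (-0.77, 0.104) were not called in the sen set by limma. The largest difference, DOX minus sen, was that of Prim1, -0.42 (SE 0.42, adjusted p = 0.88). In the interaction test limma called 0 of 18193 genes, with 1237 at an unadjusted p under 0.05 and none of the 10 among them.

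Adjustment for markers of other cells changed which genes were called. With the fibroblast marker mean of each array as a covariate, 6 of 10 were called lower, against 3.33% of all genes: Pola1, Pola2, Prim1, Pold1, Pole and Lig1. The estimates of these 6 lay between -2.01 (Prim1) and -0.93 (Pola2). Those of the other 4 were -1.23 for Pole2 (adjusted p = 0.0824), -0.72 for Prim2 (0.142), -0.62 for Pcna (0.0905) and -0.52 for Fen1 (0.175). With the macrophage marker mean added, all 10 estimates stayed below 0, from -1.72 for Prim1 to -0.25 for Prim2, and limma called 0 of them and 0 of all genes, with 4 of the 10 and 2149 of all genes at an unadjusted p under 0.05. The fibroblast marker mean was higher with ADR in 11 of 12 lymphomas and the macrophage one in all 12. These covariates thus overlap with ADR, and the estimates are less precise. The SE of Pole2 was 0.21 in the main fit, 0.38 with the fibroblast mean and 0.46 with both means. What the lost calls reflect was not tested. With each array centred on its B lineage marker mean, a choice made after seeing the data, 6 of 10 were called lower, against 1.43% of all genes: Pola1, Prim1, Prim2, Pold1, Pole and Lig1.

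The rest of the replication machinery was read from lists chosen with earlier results of these data known. Of 10 clamp loader genes, whose products place Pcna or related clamps on DNA, 8 were called lower and 0 higher (median -1.16), where 12.8% of all genes were called lower. Rfc4 changed by -1.69 and Atad5, which unloads Pcna, by -1.68. Dscc1 was also called lower, with a mean of 4.36 in ADR arrays and 6.08 in untreated arrays, but its ADR mean lay below the weak-signal level of 4.47, so the size of its fall is uncertain. Of 21 genes of origin licensing and the helicase, 18 were lower and 0 higher (median -1.05), with Gins1 at -1.74, Cdc6 at -1.73 and Cdc45 at -1.59. Of 14 genes of single-strand binding, fork protection and lagging strand processing, 12 were lower and 0 higher (median -1.16), led by Top2a (-2.04), Clspn (-1.59) and Tipin (-1.49). Top1, the topoisomerase that relaxes DNA ahead of the fork, was not called (0.13, adjusted p = 0.325).

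Of 14 Pcna partners in chromatin assembly and mismatch repair 11 were measured, and all 11 were called lower (median -1.01). Pclaf, a small protein that binds Pcna, changed by -2.13, Uhrf1, which brings DNA methyltransferase to new DNA, by -1.77 and the nuclease gene Exo1 by -1.70. Of 17 repair and translesion polymerases and ligases 8 were called lower, also a larger share than the 12.8% of all genes, 0 by at least 2-fold, and 0 higher (median -0.26). The largest changes there were those of Polh (-0.74, adjusted p = 0.00108), a polymerase that copies past ultraviolet damage, Mad2l2 (-0.67) and Poli (-0.62). Polb, the base excision repair polymerase, had 8.04 with ADR and 7.97 untreated (0.07, adjusted p = 0.614). The difference between these lists and the 10 genes was not tested.

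**Figure D5:**
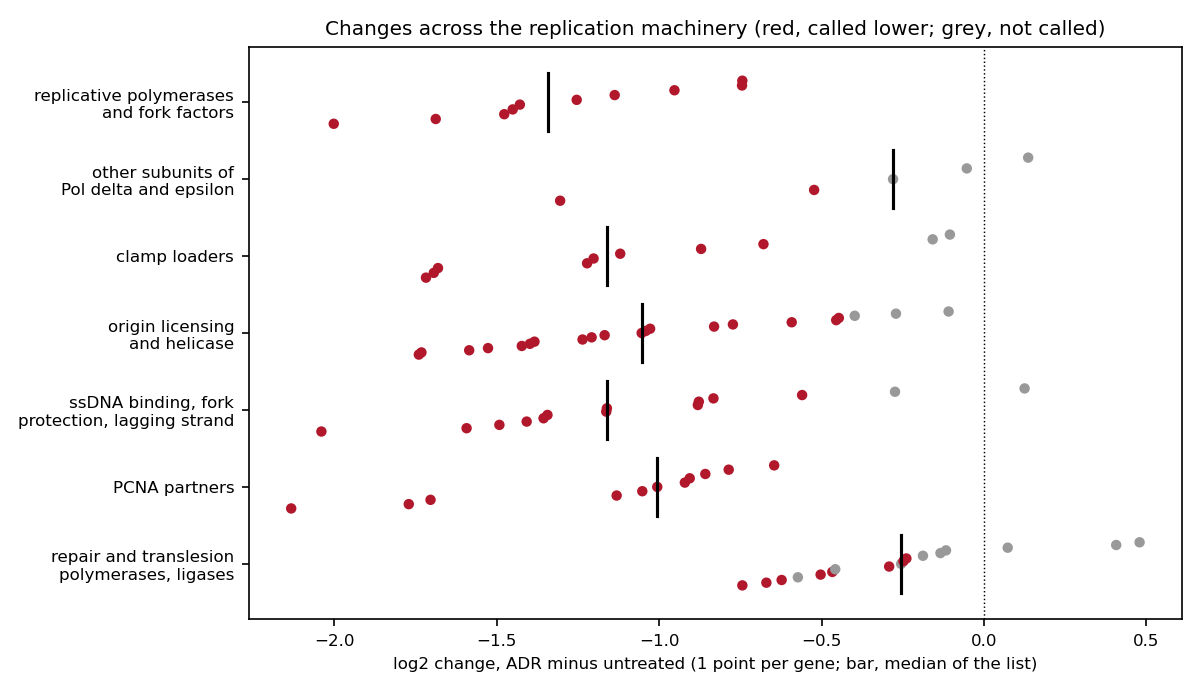
Log2 change, ADR minus untreated (horizontal axis), of each gene (points) in the 10 replicative polymerases and fork factors and 6 other lists (rows), with red for called lower, grey for not called and a bar at the list median. The 10 genes have a median of -1.34, and the repair and translesion list, at -0.26, has no gene below -0.74.

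Across the 24 arrays, the genes outside the lists most like the mean of the 10, each scaled to mean 0 and SD 1, were Asf1b, a histone chaperone (r = 0.971), Topbp1, a replication and checkpoint scaffold (0.969), Fbxo5, an inhibitor of the anaphase-promoting complex (0.963), Sass6, a centriole protein (0.958), and Mrpl18, a mitochondrial ribosome protein (0.958). These r include the difference between conditions that all 5 share with the 10 genes, and changes of the 5 ran from -1.93 for Fbxo5 to -0.85 for Mrpl18. Within the 10, the r of 1 gene with the mean of the other 9 was between 0.78 (Fen1) and 0.954 (Pola2) for 9 genes, and 0.482 for Prim2. Within ADR arrays alone Prim2 had r = 0.045 with the mean of the other 9, and the rest between 0.517 (Pole2) and 0.936 (Pola2). All these r are descriptions over arrays that share the lymphomas.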

How the data were processed

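RNA of 12 lymphomas, each with ADR and untreated, was measured on Affymetrix arrays. The deposited table holds 1 log2 value per probe set and array (45101 probe sets). Per the submitters' processing notes, RMA and Partek were used; their versions are not given in the sources used here. No further normalization was applied to the authors' values. Precision is set by there being 12 pairs.

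Of the probe sets, 34945 had 1 gene symbol in the platform annotation, 932 several and 9160 none, and 64 were controls; 34741 of the 34945 matched RefSeq by Entrez ID. A gene was represented by its brightest probe set on average, and named from no other kind. The lymphoma numbers in the titles pair the arrays, as the design text speaks of matched pairs. Deviations from the group means correlated at 0.257 to 0.589 within the 12 pairs. limma 3.58.1 (R 4.3.3) fitted ADR minus untreated with the lymphoma as a block, with Benjamini-Hochberg adjustment over 18193 genes, or 34945 probe sets. In the paired fits, p-values set the mean change against the spread of the change between lymphomas, not the spread of the levels. Differences between members used exact two-sided sign-flip tests (4096 patterns), and correlations two-sided permutation tests (100000 resamples) in Python 3.11.15. The fits were tested on simulated data.

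The members, lists, tests and named genes were chosen with earlier results of these data known. Named are the 10 members, in each other list of the replication machinery the 3 called genes with the largest change, the anchors Mki67, Cdkn1a and Myc, the 5 genes most like the members, and in cell type lists the 2 genes with the largest change; others were named after their values were seen. E2F, CCAAT, GC box and CHR letters were searched in RefSeq windows. Alternatives covered pairing, scaling, probe set choice, a filter on dim genes, variance models, marker covariates, name sets and each lymphoma left out. Sequences, their coordinates and the gene order came from RefSeq tables (GRCm38.p6), and scanner files were not analysed here.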

Additional observations from a re-analysis of the deposited data

How the results depend on the processing

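The 10 genes stayed below 0 in every alternative run, and 10 of 10 were called lower with arrays centred on their medians, quantile normalization, other probe set choices, the filter on dim genes, both variance models, in the DOX lymphomas alone and without each lymphoma in turn. Leaving out 1 lymphoma gave between 3966 and 5165 called genes, against 4829 with all. Without the lymphoma pairing (no replicate block) 3210 of 18193 genes were called, 1580 lower and 1630 higher, and 9 of the 10 were called lower. In the sen lymphomas alone 811 genes were called. Adjusting for the mean of the fibroblast markers left 1018 genes called, 605 lower and 413 higher. Of the 10 genes 6 were then called lower, against 3.33% of all genes. Of the 19 probe sets 8 were called lower, and the share of all probe sets in that fit is not given here. With the macrophage marker mean added, 0 genes and 0 of the 10 were called. Added after seeing the data, each array was centred on its B lineage marker mean, which was lower with ADR in 10 of 12 lymphomas and moved the median change of all genes to 0.65. On that scale 14838 genes were called (261 lower and 14577 higher, against 2329 and 2500 as deposited), 6 of the 10 genes were called lower, and Pola2 (-0.30), Pole2 (-0.48), Pcna (-0.09) and Fen1 (-0.09) were not. The cause of these shifts was not tested. Signal near the array medians limits what the 4 dim probe sets can show.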

Other observations

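Some genes near Prim2 on mouse chromosome 1 had their highest untreated values in the same lymphomas as Prim2. Of the 5 protein-coding genes on each side in RefSeq (GRCm38.p6) order, 6 were measured. Untreated Rab23, a small GTPase gene next to Prim2, had its 3 highest values in the lymphomas with the 3 highest Prim2 values: 7.12 in 2949, 7.08 in 6054 and 7.0 in 5766, with the other 9 at 6.78 or lower. Bend6, 5 genes away, also had its 3 highest values there (4.79 in 2949, 3.57 in 6054 and 3.54 in 5766), most of them below the array medians, and Zfp451 had 2 of its 3 highest there (8.69 in 2949 and 8.51 in 5766). Bag2, which lies between Rab23 and Zfp451, had 0 of its 3 highest there (7.56 in 2949, its lowest value, and 8.43 in 5766). Khdrbs2 also had 0 (4.22 in 2949 and 3.70, its lowest value, in 5766), and Dnaaf6 had 2, with values of 2.68 and 2.65 in 2949 and 6054 and 3.0 as its highest in 1570. Khdrbs2 and Dnaaf6 lay below the array medians. These genes were looked at after the Prim2 values were seen, and no test was made.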
